A study of Mus musculus with 12 samples.

Results

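The IFIT and IFITM genes are interferon-stimulated antiviral genes, and 7 of them were followed here among the 22561 genes counted in mouse follicular (FO) B cells. They are Ifit1, Ifit2, Ifit3, Ifit3b, Ifitm1, Ifitm2 and Ifitm3, selected by name. FO B cells are the recirculating, naive-type B cells of lymphoid follicles. They were sorted by FACS from 10-week-old C57BL6 mice and studied in 4 groups of 3 samples. The groups were unstimulated cells and cells kept for 12 h with IFNα, with CpG, or with CpG plus IFNα. IFNα is a type I interferon (IFN), and CpG is an oligodeoxynucleotide that is sensed by TLR9. No genetic alteration of the mice is given for any group. The sources do not say whether the unstimulated cells spent the 12 h in culture, so an effect of culture and an effect of a stimulus cannot be told apart in comparisons with them. They also do not say whether the 3 samples of a group came from separate mice, and p-values then measure only the spread between these samples.

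IFIT proteins are cytosolic RNA-binding proteins built of tetratricopeptide repeats. Ifit1 encodes a protein that binds RNA whose cap lacks the methyl marks of self mRNA and blocks its translation. Ifit2 and Ifit3 encode partner proteins that bind each other and other IFIT proteins, and Ifit3b is a near copy of Ifit3. IFITM proteins are small membrane proteins that hinder the fusion of enveloped viruses with cell membranes. The Ifitm3 product works mainly in endosomes, and in B cells it has also been described as a scaffold for phosphoinositide signaling. Both families are classical targets of the type I IFN receptor, whose transcription factor complex binds interferon-stimulated response elements in promoters.

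The 4 IFIT genes lie on chromosome 19 and the 3 IFITM genes on chromosome 7 of GRCm38, each family in a cluster. The chromosome 19 order is Ifit2 (chr19:34550694-34576419, plus strand), Ifit3 (chr19:34583531-34588731, plus), Ifit3b (chr19:34607970-34613401, plus) and Ifit1 (chr19:34640871-34650009, plus). Between them lie Ifit1bl1 (chr19:34592891-34601956, minus) and Ifit1bl2 (chr19:34617049-34640743, minus), family genes outside the 7. On chromosome 7 the order is Ifitm2 (chr7:140954837-140955987, minus), Ifitm1 (chr7:140967221-140969825, plus) and Ifitm3 (chr7:141009586-141010770, minus). All 7 are annotated as protein coding.

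The promoters are shown because letters of the interferon-stimulated response element set the members apart before any expression value is given. RefSeq windows of 250 bases before and 50 after each start (GRCm38.p6) were searched for GAAANNGAAA, which reads TTTCNNTTTC on the opposite strand. This motif was in 3.44% of 32851 windows of the same length, and 0.225% held at least 2 copies. Every printed sequence runs 5′ to 3′ on the strand of its gene, and the capitals mark the matches. Matches describe letters and not bound sites.

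Ifit3, chr19:34583363-34583426, plus strand: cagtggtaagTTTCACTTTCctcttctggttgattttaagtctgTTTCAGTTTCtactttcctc
Ifit3b, chr19:34607759-34607822, plus strand: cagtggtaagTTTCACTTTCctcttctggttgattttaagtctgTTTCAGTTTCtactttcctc
Ifit1, chr19:34640775-34640823, plus strand: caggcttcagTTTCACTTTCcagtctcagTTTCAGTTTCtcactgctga
Ifit1bl1, chr19:34602053-34602082, minus strand: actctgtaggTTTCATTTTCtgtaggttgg
Ifitm2, chr7:140955988-140956017, minus strand: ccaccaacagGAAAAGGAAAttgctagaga
Ifitm3, chr7:141010716-141010742, minus strand: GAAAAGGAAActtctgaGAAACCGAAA

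The 64 bases shown for Ifit3 and Ifit3b were identical, and their whole promoter windows shared 99.2% of 260 aligned bases. In Ifit3 the copies began 156 and 122 bases upstream of the start, and in Ifit3b 188 and 154 bases upstream. Ifit1 had its copies 104 and 85 bases upstream, and the window of the divergent Ifit1bl2 held the same stretch. Ifitm3 had its copies just after the RefSeq start, from bases 2 and 19, and Ifitm2 had 1 copy 46 bases upstream. The window of Ifitm1 and both windows of Ifit2 held no match, which says only that these letters are not in these windows. A second motif, TTCNNNGAA, the letters of the gamma-activated site, was in 8.3% of windows. Among them were the window of Ifitm3 and 1 window of Ifit2, but not its other window.

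RNA was counted by bulk RNA barcoding (BRB) sequencing, which tags the 3′ end of each transcript with a unique molecular identifier (UMI), so the counts do not scale with transcript length. Totals ran from 922450 to 2923865 UMI counts per sample, and the group median was highest with CpG plus IFNα, at 1900101. Values are given as CPM, which scales counts to a common library total, normalized by the TMM method. The 8 B cell markers were present in every group, and their summed level was 8038 to 9234 CPM in unstimulated cells, 6962 to 7875 with IFNα, 1376 to 1545 with CpG and 1208 to 1320 with CpG plus IFNα. The 7 of 10 myeloid markers in the table summed to 13.6 to 37.4 CPM in unstimulated cells and to at most 17.6 CPM in any stimulated sample, with Lyz2, S100a8 and Cd14 at 0 in all stimulated groups. The 5 plasmacytoid dendritic cell markers summed to 248 to 310 CPM in unstimulated cells, 432 to 453 with IFNα, 161 to 171 with CpG and 161 to 245 with CpG plus IFNα. This list includes Tcf4, which B cells also express, and its members Siglech and Klk1 were at 0 in every sample. The 6 erythroid markers summed to 57.4 to 345 CPM in unstimulated cells, 15.3 to 336 with IFNα, 4.99 to 60.8 with CpG and 5.65 to 72 with CpG plus IFNα. The 4 plasma cell markers summed to 119 to 145, 97.9 to 114, 54.2 to 80.4 and 45.9 to 73.5 CPM in the same order, and the 5 of 7 T cell markers in the table to at most 3.64 CPM in any sample. The part of these other cell types in the results was not tested. In bulk RNA, fewer cells that express a gene and less RNA per cell cannot be told apart.

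Similar copies set a limit on 3 of the members. The Ifit3 and Ifit3b transcripts were 98% identical over 1697 aligned bases. Windows of 81 bases that also occur exactly in Ifit3b made up 38.7% of the Ifit3 transcript, but only 8.57% of its last 500 bases, where 3′ reads concentrate. No such window lay wholly in the last 500 bases of Ifit3b, of which 197 could be aligned to Ifit3, with 94.9% identity. Ifitm2 shared 40.3% of such windows, and 30.2% in its last 500 bases, with the readthrough gene Gm45717 and 4 other annotated genes. Ifit1 shared 4.74% with Ifit1bl2 and none in its last 500 bases. Ifit2, Ifitm1 and Ifitm3 shared none, and the IFITM transcripts were 71.8% to 76.9% identical to each other. How reads that fit several genes were treated is not given in the sources used here, so the split between Ifit3 and Ifit3b, and the few Ifitm2 counts, are uncertain.

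Of the 7 genes, 5 passed edgeR's filter on low counts and were tested with 9431 genes in all. Ifitm1 and Ifitm2 did not pass it. Ifit2, Ifit3 and Ifit3b passed it through the groups with IFNα and would not have passed on unstimulated and CpG samples alone, so counts and medians over the tested members are descriptions of them and not of all 7. DEGs were genes whose adjusted p was under 0.1 (Benjamini-Hochberg, edgeR quasi-likelihood test) and whose log2 fold change exceeded 1 in size. All comparisons came from 1 fit of the 12 samples, and those that share a group share its samples.

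IFNα alone raised all 5 tested members, from 33.0-fold for Ifit1 to 106-fold for Ifit3. Among all 9431 genes, IFNα called 4.56% higher and 4.07% lower, and the median log2 fold change was 5.94 over the 5 members and -0.0012 over all genes. No sample with IFNα overlapped an unstimulated sample in any of the 5 genes. The share of all genes separated in this way was not counted.

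Ifit3 reached the highest level of the 7. It stood at 11.8, 7.49 and 18.5 CPM in the unstimulated samples and at 1469, 1243 and 1416 CPM with IFNα. The log2 fold change had a 95% interval of 6.18 to 7.27 and ranked 2 of all genes by p-value.

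Its near copy Ifit3b stood at 4.55, 8.56 and 7.94 CPM in unstimulated samples and at 461, 386 and 451 CPM with IFNα. The log2 fold change was 5.94 (SE 0.317, adjusted p = 1.2e-21 from edgeR). Ifit3b made up 23.89%, 23.69% and 24.16% of the joint Ifit3 and Ifit3b counts in the 3 IFNα samples, a share that hardly varied between them.

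Ifit2 rose from 10.9, 5.35 and 13.2 CPM to 885, 545 and 748 CPM, a log2 fold change of 6.15 (SE 0.316, adjusted p = 3.66e-21 from edgeR). Ifit1, the sensor of incompletely methylated caps, went from 10.9, 12.8 and 32.6 CPM to 733, 527 and 656 CPM. Its log2 fold change of 5.05 (SE 0.263, adjusted p = 2.54e-19 from edgeR) was the lowest of the 5, and it was 5.72 without unstimulated replicate 3. That replicate held the highest unstimulated level of Ifit1, Ifit2, Ifit3 and Ifitm3.

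Ifitm3 was the only IFITM gene with more than 20 counts over all samples. It rose from 9.10, 12.8 and 22.1 CPM to 896, 567 and 921 CPM, a log2 fold change of 5.73 (SE 0.281, adjusted p = 1.27e-20 from edgeR). Replicate 2 was the lowest IFNα sample for all 5 genes.

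**Figure D1:**
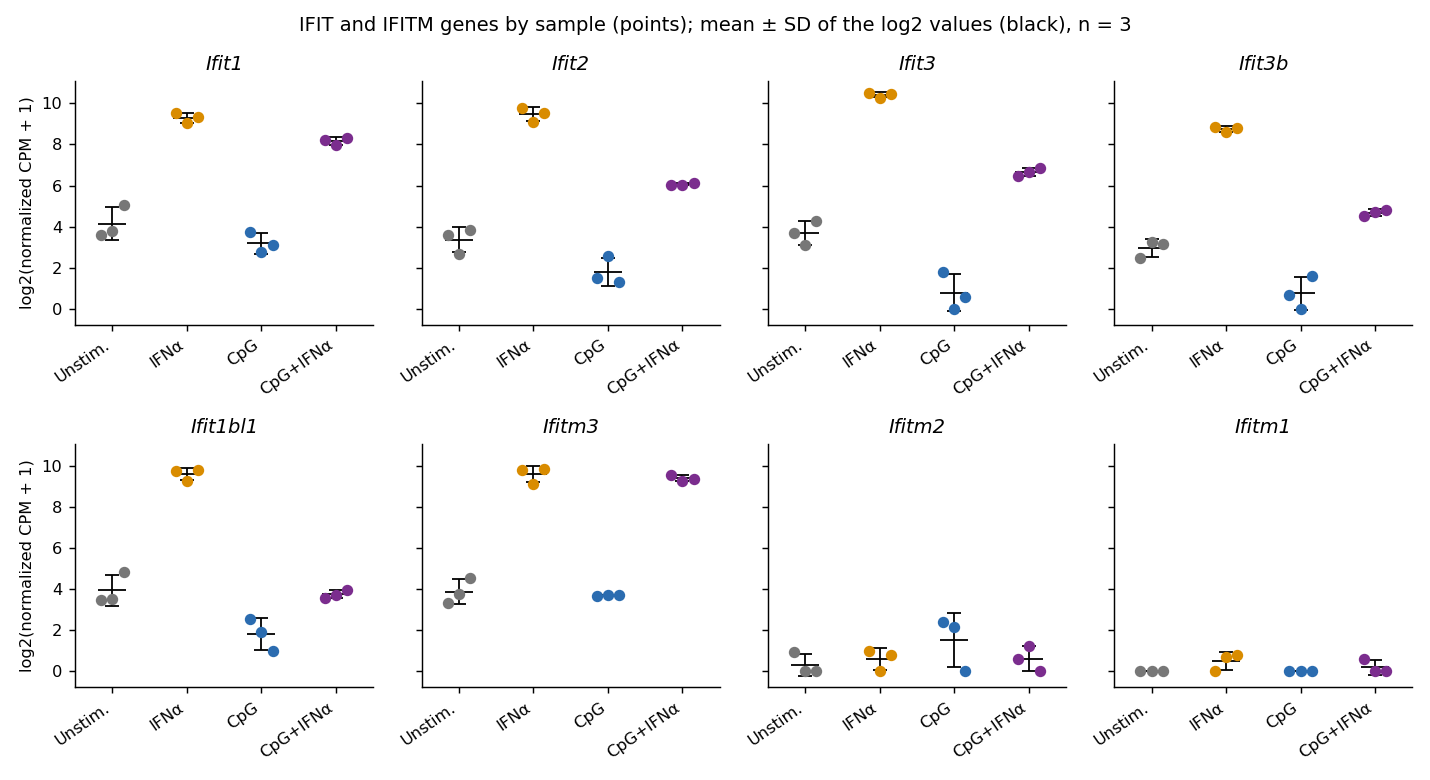
Level of each gene in each sample, as log2(normalized CPM + 1) on the vertical axis, by group on the horizontal axis. Points are samples and black marks are the mean ± SD of the log2 values (n = 3). Ifit1bl1 is shown beside the 7 genes. All IFIT genes and Ifitm3 were highest with IFNα, Ifitm3 stayed near that level with CpG plus IFNα, Ifitm1 had at most 1 count in any sample, and Ifitm2 reached its highest levels, 4.3 and 3.56 CPM, in 2 CpG samples.

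With CpG alone the 4 IFIT genes were called lower in the fit of all samples, at 5 to 43 summed counts per gene in the CpG group, and Ifitm3 was not called. With CpG, 20.1% of all genes were higher and 25.5% lower than in unstimulated cells, so calls were frequent in the background.

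Ifit3 fell to 2.46, 0 and 0.499 CPM with CpG, from 4, 0 and 1 counts. The groups did not overlap, and the log2 fold change was -3.60 (SE 0.735, adjusted p = 7.84e-07 from edgeR), or -5.10 without CpG replicate 1. As summed counts over summed normalized depth, the ratio to unstimulated cells was 0.0767, with an exact 95% interval from 0.0237 to 0.194 that covers counting error only.

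Ifit3b fell to 0.614, 0 and 2 CPM, below all unstimulated samples, with a log2 fold change of -2.71 (SE 0.701, adjusted p = 0.00013 from edgeR). It was -4.07 without CpG replicate 3, which held 4 of the 5 counts. Ifit2 fell to 1.84, 4.99 and 1.5 CPM, with a log2 fold change of -1.93 (SE 0.551, adjusted p = 0.0013 from edgeR), or -2.52 without CpG replicate 2. Its groups were only narrowly apart. CpG replicate 2 had 4.99 CPM from 7 counts, and unstimulated replicate 2 had 5.35 CPM from 5 counts.

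Ifit1 had 12.3, 5.70 and 7.49 CPM with CpG, and the highest of these lay above the lowest unstimulated sample. The log2 fold change of -1.16 (SE 0.373, adjusted p = 0.00589 from edgeR) passed the thresholds. The call was lost without unstimulated replicate 3 (log2 fold change -0.48, adjusted p = 0.308 from edgeR) and without CpG replicate 2 (-0.95). In a fit of unstimulated and CpG samples only, Ifit1 was the only IFIT member that passed the filter on low counts, and it was called there.

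Ifitm3 stood at 11.7, 12.1 and 12.0 CPM with CpG, inside the range of unstimulated cells. Its log2 fold change of -0.31 (adjusted p = 0.434 from edgeR) did not pass, with a 95% interval from -1.04 to 0.41, and it was 0.12 without unstimulated replicate 3.

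IFNα added to CpG raised all 5 tested members over CpG alone. With CpG plus IFNα, 2.95% of all genes were higher and 2.01% lower than with CpG. The median log2 fold change was 5.05 over the members and -0.04 over all genes. No sample of the groups overlapped in any of the 5 genes, and the share of all genes without overlap was again not counted.

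Ifitm3 rose to 768, 624 and 670 CPM, a log2 fold change of 5.84 (SE 0.256, adjusted p = 5.73e-21 from edgeR). Ifit1 rose to 294, 247 and 318 CPM, a log2 fold change of 5.05 (SE 0.301, adjusted p = 2.9e-18 from edgeR). These genes combined a high level and a narrow interval.

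Ifit3 reached 87.3, 101 and 115 CPM, and its log2 fold change of 6.56 had a wide 95% interval from 5.14 to 7.98, because the CpG samples held 5 counts in all. It was 8.09 without CpG replicate 1. Ifit2 reached 64.4, 64.9 and 69.4 CPM (log2 fold change 4.63, or 5.25 without CpG replicate 2). Ifit3b reached 21.8, 25.5 and 27.2 CPM (log2 fold change 4.55, or 5.93 without CpG replicate 3).

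CpG added to IFNα separated the members. The 4 IFIT genes were lower with CpG plus IFNα than with IFNα alone, and Ifitm3 was not called. Over all genes, 18.7% were higher and 25.5% lower in this comparison, so the share called was again high in the background. The median log2 fold change was -3.45 over the members and -0.07 over all genes.

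Ifit3b had the largest estimated decrease of the members, from 386 or more CPM in every IFNα sample to 27.2 or less in every CpG plus IFNα sample. The log2 fold change was -4.11 (SE 0.152, adjusted p = 4.85e-22 from edgeR). Ifit3 followed with -3.76 (SE 0.133, adjusted p = 2.53e-21 from edgeR) and Ifit2 with -3.45 (SE 0.148, adjusted p = 1.63e-19 from edgeR).

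Ifit1 fell less, with means of 639 ± 104 and 286 ± 36.2 CPM (SD, n = 3) and a log2 fold change of -1.16 (SE 0.143, adjusted p = 1.46e-08 from edgeR). The 95% interval of Ifit1, from -1.45 to -0.86, lay apart from that of Ifit2, from -3.75 to -3.15. Ifitm3 had 795 ± 197 and 687 ± 73.6 CPM (SD, n = 3), and its samples overlapped. Its log2 fold change of -0.21 (adjusted p = 0.172 from edgeR) had a 95% interval from -0.48 to 0.07.

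Compared with unstimulated cells, CpG plus IFNα still raised all 5 tested members, while 20.3% of all genes were higher and 25.6% lower. The log2 fold change was 5.53 for Ifitm3, 3.89 for Ifit1 (4.61 without unstimulated replicate 3), 2.96 for Ifit3, 2.70 for Ifit2 and 1.83 for Ifit3b. The median was 2.96 over the members and -0.01 over all genes.

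The order of the group levels differed between genes. For Ifit2, Ifit3 and Ifit3b it was IFNα, CpG plus IFNα, unstimulated and CpG, with no overlap between neighbors. For Ifit2 the unstimulated and CpG samples were only narrowly apart. How many of all genes had such an order was not counted. Ifit1 had the same order of means, but its unstimulated and CpG samples overlapped. For Ifitm3, IFNα overlapped CpG plus IFNα, and unstimulated overlapped CpG.

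**Figure D2:**
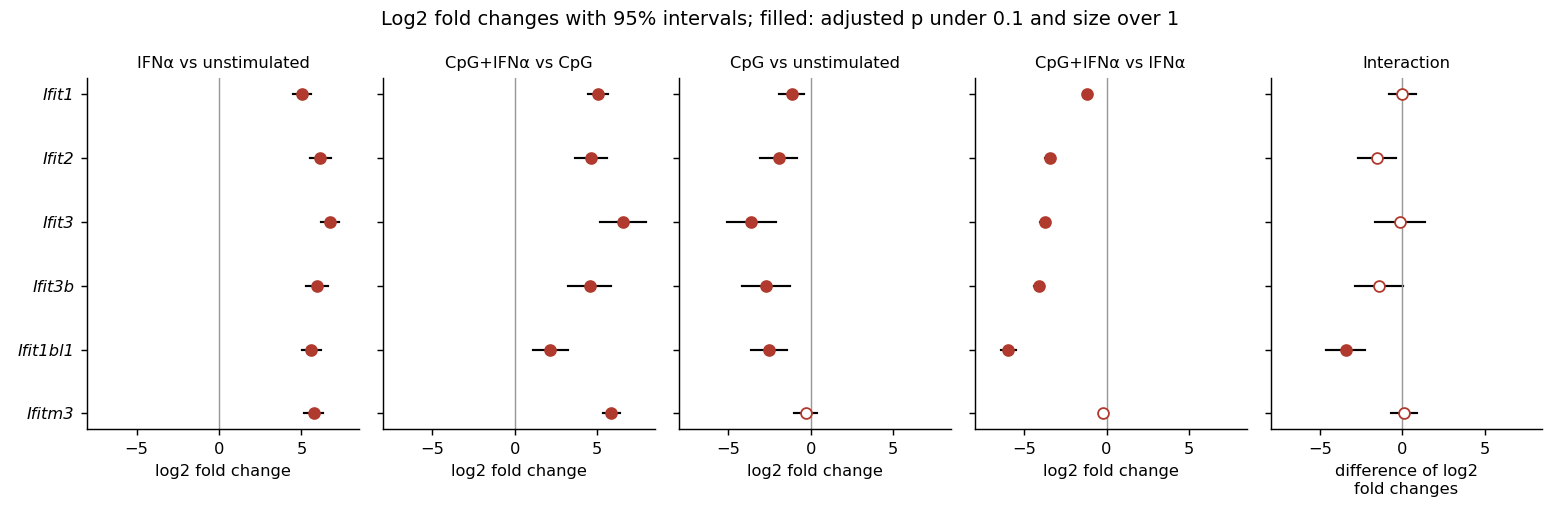
Log2 fold changes (horizontal axes) of the 5 tested members and Ifit1bl1 in 4 comparisons, and the interaction, with 95% intervals as lines. Filled points had an adjusted p under 0.1 and a size over 1. Ifitm3 and Ifit1 lie furthest right in CpG plus IFNα against IFNα, at -0.21 and -1.16, and Ifit1bl1 is the only filled point of the interaction.

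The interaction asks whether IFNα had another effect with CpG than without, as the difference between the 2 log2 fold changes. It called 3.09% of all genes in the higher and 3.17% in the lower direction, and 0 of the 5 members by edgeR. The median was -0.16 over the members and -0.05 over all genes. DESeq2 called 1 member, Ifit2, and Ifit2 was also the only member with an unadjusted p under 0.05 in edgeR (0.0206).

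For Ifit2 the interaction was -1.52 (95% interval -2.68 to -0.36, adjusted p = 0.132 from edgeR), with DESeq2 it was -1.47 (adjusted p = 0.0767). Without IFNα replicate 2 it passed at -1.70 (adjusted p = 0.0395 from edgeR), and without CpG replicate 2 it was -0.91 and did not pass (adjusted p = 0.58 from edgeR). For Ifit3b it was -1.39 (-2.86 to 0.07) and for Ifit3 -0.16 (-1.69 to 1.36), with wide intervals. Without CpG replicate 3 the Ifit3b value was -0.015, and without CpG replicate 1 that of Ifit3 was 1.36. Ifit1 gave 0.01 (-0.81 to 0.82) and Ifitm3 0.11 (-0.67 to 0.88). For Ifit1, Ifit3, Ifit3b and Ifitm3 a difference was not shown, and equal folds were not shown either. For Ifit2 the call depended on the tool, on a block for the replicate number and on single samples.

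Within each sample, the IFITM members were also set against the IFIT members. The IFITM sum was almost all Ifitm3, with 7655 counts over all samples, against 20 for Ifitm2 and 3 for Ifitm1. The IFIT sum left out Ifit1bl1, which had 3230 counts. In the CpG samples the IFIT sum was 28, 15 and 23 counts. The log2 ratio of summed IFITM to summed IFIT counts, with 1 added to each sum, was -1.84, -1.34 and -1.68 in unstimulated samples and -1.98, -2.25 and -1.83 with IFNα. It was -0.10, 0.52 and 0.06 with CpG and 0.72, 0.51 and 0.34 with CpG plus IFNα. All 6 samples with CpG lay above all 6 without. The mean difference was 2.16 on the log2 scale, 1.78 without IFNα and 2.54 with it. This contrast was chosen after the data were seen and is given as a description. The mean difference between samples with and without IFNα was -0.02 (exact permutation test within CpG arms, two-sided, p = 0.935), as a difference of -0.40 without CpG and 0.36 with CpG.

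The balance within the IFIT genes is given as a description, since this pair was picked after its values were seen. The log2 ratio of Ifit1 to Ifit3, with 1 added to each count, was -0.11, 0.70 and 0.79 in unstimulated samples, -1.003, -1.24 and -1.11 with IFNα, 2.07, 3.17 and 3 with CpG, and 1.75, 1.28 and 1.47 with CpG plus IFNα. The 6 samples with CpG lay above the other 6, by 2.29 on average without IFNα and 2.62 with it. In the CpG samples Ifit3 had 4, 0 and 1 counts, so the added count sets these values in part.

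Ifit3b took 20%, 20.11% and 19.2% of the joint Ifit3 and Ifit3b counts with CpG plus IFNα, below the 3 IFNα samples. In unstimulated samples it took 27.78%, 53.33% and 30% of at most 30 counts, and with CpG 20% and 80% of 5 counts each, the remaining CpG sample having none. The mean difference with IFNα was -21.7 percentage points (exact permutation test, two-sided, p = 0.015, smallest possible 0.01 in 200 arrangements, 0.045 after Benjamini-Hochberg adjustment over the 3 tests of shares and ratios), but -6.68 without CpG replicate 3 (exact p = 0.05). The call rests on few counts in samples without IFNα and was not kept under all alternatives run.

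**Figure D3:**
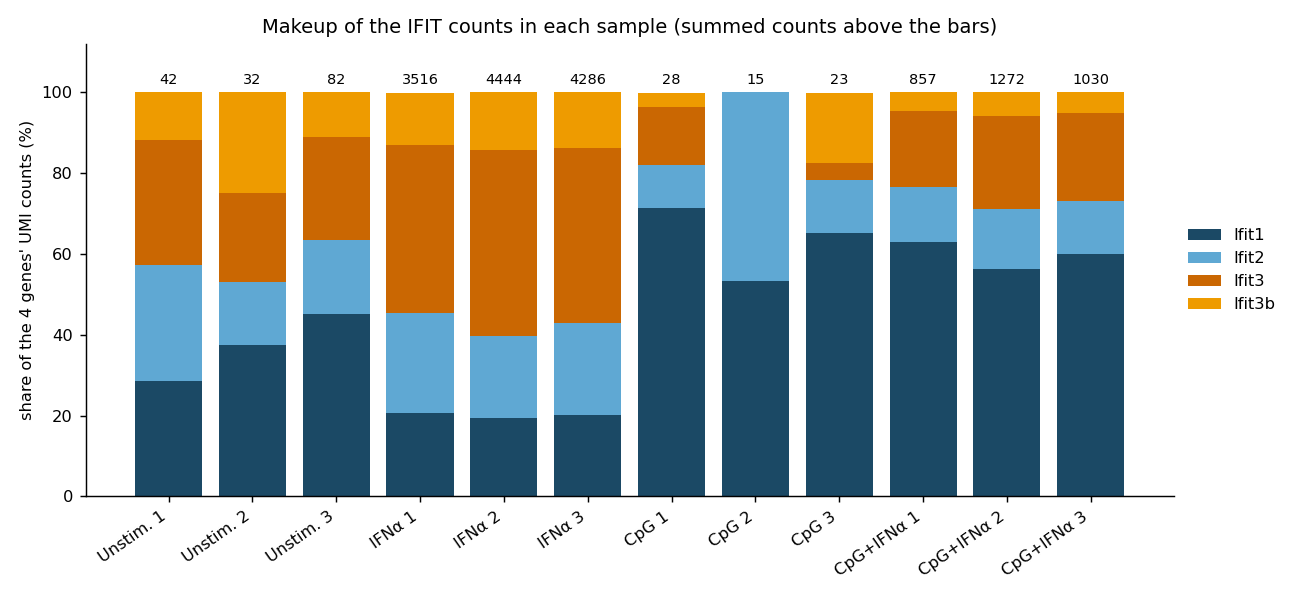
Share of each IFIT member in the summed UMI counts of the 4 genes (vertical axis, percent) in each sample, with the summed counts above the bars. Ifit3 takes the largest share in the IFNα samples and Ifit1 in the CpG plus IFNα samples. Bars of unstimulated and CpG samples rest on 15 to 82 counts.

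**Figure D4:**
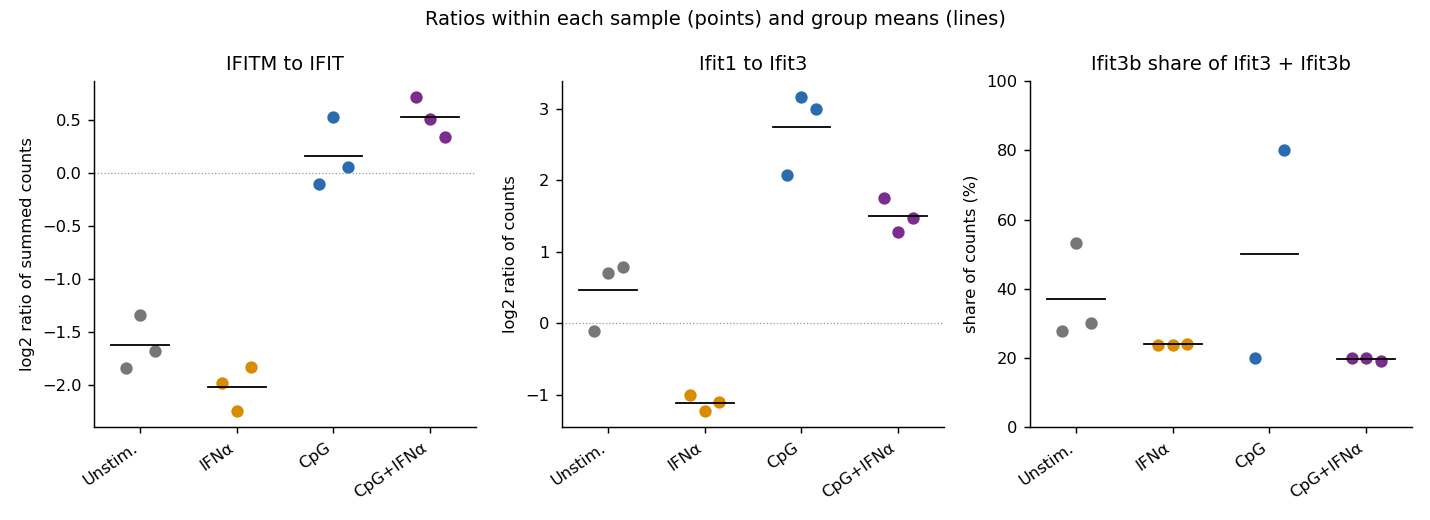
Log2 ratio of summed IFITM to summed IFIT counts, log2 ratio of Ifit1 to Ifit3 counts, and share of Ifit3b in the Ifit3 and Ifit3b counts (percent), by group. Points are samples and lines are group means. In both log2 ratios the 6 samples with CpG lie above the 6 without.

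Ifitm1 and Ifitm2 could hardly be measured at this depth. Ifitm1, which acts at the cell surface, had 3 counts over all samples, which were 1 count in each of 2 IFNα samples and in 1 CpG plus IFNα sample. A count of 0 allows up to 3 counts per library, so its absence is not shown. Ifitm2 had 20 counts over all samples. They were 1, 0 and 0 in unstimulated cells, 1, 0 and 1 with IFNα, 7, 5 and 0 with CpG, and 1, 4 and 0 with CpG plus IFNα. Its share of the IFITM counts differed by -9.71 percentage points between samples with and without IFNα, which did not pass (exact permutation test, two-sided, p = 0.2). Between CpG and unstimulated cells it had 12 against 1 counts, a ratio of 7.55 in depth-scaled counts, with an exact 95% counting interval from 1.12 to 323. Without the filter on low counts, Ifitm2 was called higher with CpG (log2 fold change 2.71, adjusted p = 0.0678 from edgeR), although CpG replicate 3 had no count. Of the 655 exonic bases of Ifitm2, 268 also belong to Gm45717, and none of its last exon of 337 bases does.

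Of the other family genes, Ifit1bl1, Ifit1bl2 and Ifitm6 were in the table. Ifit1bl1 rose with IFNα from 10.0, 10.7 and 27.4 CPM to 877, 626 and 900 CPM, and it had 4.91, 2.85 and 0.998 CPM with CpG. With CpG plus IFNα it had 10.9, 12.4 and 14.9 CPM, inside the unstimulated range. Its log2 fold change in CpG plus IFNα against IFNα was -5.96 (SE 0.231, adjusted p = 1.89e-22 from edgeR), larger in size than in any of the 5 members. Ifit1bl2 had 4, 5 and 4 counts with IFNα and at most 1 in any other sample, and Ifitm6 had 3 counts in all.

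**Figure D5:**
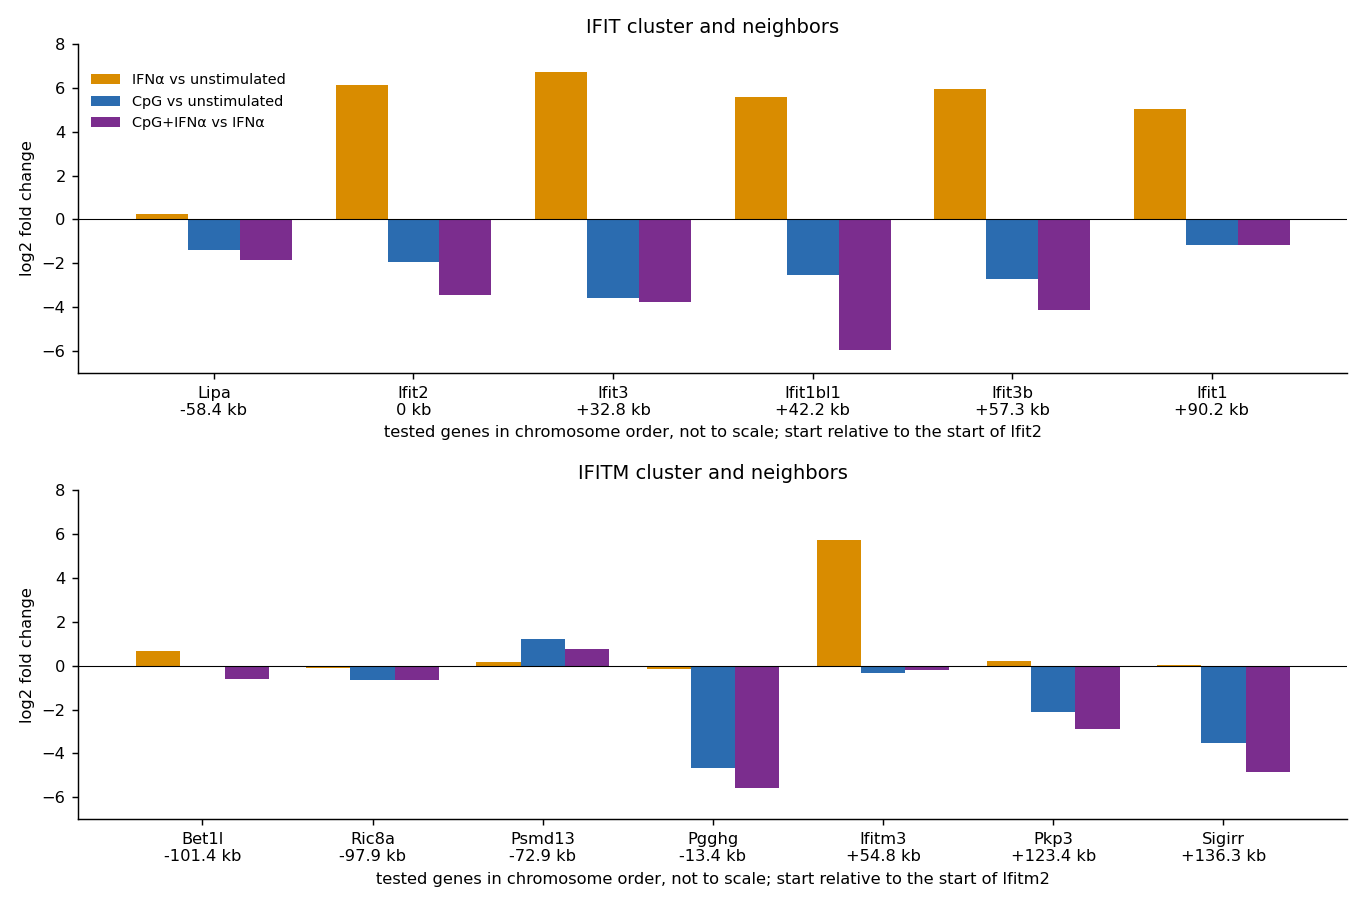
Log2 fold changes (vertical axes, bars from 0) of the tested genes of the IFIT cluster (top) and the IFITM cluster (bottom) and of their neighbors, in chromosome order and not to scale, with the distance of each start in kb. IFNα raised the family genes and none of the neighbors past a log2 fold change of 1.

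The genes next to the clusters were compared to see whether they shared the pattern. None of the 7 tested neighbors within 100 kb rose past the thresholds with IFNα, with log2 fold changes from -0.15 for Pgghg to 0.67 for Bet1l. Next to the IFIT genes, Lipa, a lysosomal lipase gene, had a log2 fold change of 0.23 with IFNα and of -1.87 in CpG plus IFNα against IFNα. Next to the IFITM genes, in that latter comparison, 3 of 6 tested neighbors were called lower, Pgghg (-5.60), Pkp3 (-2.88) and Sigirr (-4.86), against 25.5% of all genes. Bet1l (-0.59), Ric8a (-0.66) and Psmd13 (0.77) were not called, nor was Ifitm3.

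The 13 genes of the type I IFN receptor pathway gave a partly similar picture. IFNα called 6 of them higher and 1 lower, CpG 0 higher and 11 lower, and IFNα added to CpG 7 higher and 0 lower. Of all genes these comparisons called 4.56% and 4.07%, 20.1% and 25.5%, and 2.95% and 2.01%. CpG added to IFNα called 0 higher and 8 lower (18.7% and 25.5% of all genes), CpG plus IFNα against unstimulated cells 3 higher and 6 lower (20.3% and 25.6%), and the interaction 3 higher and 0 lower (3.09% and 3.17%). Irf7, an IFN-induced transcription factor, had log2 fold changes of 4.83 with IFNα and -2.48 in CpG plus IFNα against IFNα, as for the IFIT genes. Usp18, a brake on the receptor, had 4.81 and -0.64. The latter (adjusted p = 6.28e-05 from edgeR) was not called because it was under the fold threshold. Of 18 type I IFN genes looked for, 2 were in the table, with 1 count between them.

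Of 8 listed genes of known IFIT partners and of cap methylation, 7 were tested, and edgeR called 0 for IFNα and 0 for IFNα added to CpG or the interaction. Of all genes, these comparisons called 4.56% higher and 4.07% lower, 2.95% and 2.01%, and 3.09% and 3.17%, so 0 of 7 is near the background. Eif3c, a translation initiation factor gene, had a log2 fold change of 0.54 with IFNα (adjusted p = 0.003 from edgeR), under the fold threshold. CpG called 3 higher and 1 lower, as did CpG plus IFNα against unstimulated cells, where 20.1% and 20.3% of all genes were higher and 25.5% and 25.6% lower. Rnmt, a cap methyltransferase gene, had a log2 fold change of 1.56 with CpG, Cmtr2 1.80 and Eif3c 1.70, whereas Cmtr1 fell by 1.42. CpG added to IFNα called 3 higher and 0 lower, against 18.7% and 25.5% of all genes.

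Of 8 genes of IFITM partners and regulators, all tested, IFNα called 2 lower, Cr2 (log2 fold change -2.38), which encodes complement receptor CD21, and Nedd4 (-2.60), a ubiquitin ligase that acts on IFITM3, and none higher. Of all genes, IFNα called 4.07% lower and 4.56% higher. CpG called 2 lower, among them Cr2 (-3.61), and none higher. CpG plus IFNα against unstimulated cells also called 2 lower, among them Cr2 (-4.89), and none higher. These 2 of 8 were close to the 25.5% and 25.6% of all genes called lower. IFNα added to CpG again called Cr2 (-1.28) and Nedd4 (-1.07) lower and none higher, against 2.01% and 2.95% of all genes. CpG added to IFNα called 1 higher and 2 lower, against 18.7% and 25.5% of all genes. The interaction called 2 higher and 0 lower, against 3.09% and 3.17% of all genes.

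As a description over the 12 samples, the pattern of each member was set against all tested genes by Pearson's r of log2(normalized CPM + 4). The samples share their groups, so r mainly follows the 4 group levels. Closest to Ifitm3 were Phf11b (0.993), Lgals9 (0.992) and Ifi207 (0.991), and closest to Ifit1 were Oas3 (0.993), Oasl1 (0.992) and Eif2ak2 (0.991). Ifit3 was closest to Oasl2 (0.998), Irf7 (0.992) and Herc6 (0.990), and Ifit2 to Oasl2 (0.992), A330040F15Rik (0.989) and Tpst1 (0.988). Ifit3b was closest to Slfn1 (0.993), Pkib (0.987) and Tgtp2 (0.987). Between the members, r was 0.992 for Ifit2 and Ifit3, 0.981 for Ifit1 and Ifitm3 and 0.821 for Ifit3b and Ifitm3.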

How the data were processed

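Counts of UMIs per gene were deposited by the authors without normalization for 12 samples (4 groups of 3, from the labels). Per the labels and the study's methods they were made with UMI-tools 1.1.2, Trim Galore 0.6.7, HISAT2 2.2.1 and featureCounts 2.0.1 on GRCm38, with Tlr9 extended. The annotation release, strand setting and treatment of reads that fit several genes are not given in the sources used here. All 22561 gene identifiers are in GENCODE M21, which gave positions and transcripts. Depth was 922450 to 2923865 counts per sample. Replicates differed by more than counting noise, so none was a copy.

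Counts were analysed with edgeR 4.0.16 in R 4.3.3: TMM, filterByExpr by group, glmQLFit and glmQLFTest in 1 fit of the 4 groups. Benjamini-Hochberg adjustment ran over 9431 genes. The design of one fit follows the 4 groups that the study compared. Standard errors and 95% intervals came from the fit's weights and moderated variance. Shares and ratios within a sample were tested by exact permutation, except the contrasts of CpG on ratios, which were added after the data were seen. Count ratios had exact binomial intervals, which cover counting error only. Transcripts were compared in 81-base windows and by alignment (Biopython 1.88). Promoter sequences are from RefSeq (GRCm38.p6).

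The named genes are the 7 members, other IFIT and IFITM genes of the table, neighbors within 100 kb, members of the gene lists reported, and the 3 genes most alike in pattern to each tested member. Not every list gene that falls under this rule is named here, and the result of one is left out. Members and lists were chosen with earlier results of these data known. The fit was checked on simulated counts. For this, 200 genes were given a change of 2 on the log2 scale in the samples with both stimuli. The fit recovered 97% against CpG, 95% against IFNα and 90% in the interaction, with 9, 6 and 9 false calls among 9180 genes tested. No change was simulated in CpG against unstimulated cells, and recovery at the low counts of the members there was not checked. Alternatives were other normalizations and filters, DESeq2 1.42.0, a higher fold threshold, a fit of the compared groups only, similar copies summed, a block for the replicate number, and fits with 1 sample left out. The barcode list was not used.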

Additional observations from a re-analysis of the deposited data

Results flagged for a closer look

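Among the 6 tested IFIT and IFITM genes, the edgeR fit of the 4 groups called the interaction for Ifit1bl1 alone, and some alternatives called Ifit2 too. Genes called in the interaction from the lists of the pathway and of partners are counted in the report. For Ifit1bl1, an IFIT family gene between Ifit3 and Ifit3b, IFNα acted differently in the presence and absence of CpG (interaction -3.44 on the log2 scale, SE 0.586, adjusted p = 0.00118 from edgeR). IFNα raised it by a log2 fold change of 5.60 without CpG (6.24 without unstimulated replicate 3) and of 2.16 with CpG (2.80 without CpG replicate 1). The interaction was -2.81 without CpG replicate 1 and -4.04 without unstimulated replicate 3, and it stayed called in both. With CpG the gene held 8, 4 and 2 counts. It shared 1.42% of its 81-base windows with Ifit1bl2 and none in its last 500 bases.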

How the results depend on the processing

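In IFNα against unstimulated cells and in CpG plus IFNα against each of the other 3 groups, every called member kept its direction under all alternatives run. Each of the other normalizations, filters and tools left the number of members called within 1.5 times, except as follows. In CpG against unstimulated cells, 4 members were called, 2 with a log2 fold change over 2, 1 in a fit of the compared groups only (where Ifit2, Ifit3 and Ifit3b did not pass the filter), and 3 to 4 with a sample left out. In the interaction, 0 were called, 1 by DESeq2 (Ifit2), 1 with the replicate number as a block (Ifit2, -1.48, adjusted p = 0.0965 from edgeR), and 0 to 1 with a sample left out (1 without IFNα replicate 2). Over all genes the interaction called 291 higher and 299 lower, 330 and 231 with library size only, 366 and 237 without a filter, 96 and 59 with a log2 difference over 2, and 312 and 315 with the block.

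With a sample left out, the sign changed for uncalled values: Ifitm3 in CpG against unstimulated (-0.56 to 0.12), Ifit1bl1 in CpG plus IFNα against unstimulated (-0.61 to 0.32), and the interactions of Ifit1 (-0.62 to 0.34), Ifit3 (-0.62 to 1.36) and Ifitm3 (-0.28 to 0.37, and -0.13 with similar copies summed). The effect of IFNα on the log2 ratio of IFITM to IFIT counts ran from -0.0838 to 0.0728. That of CpG ran from 2.07 to 2.23, and its effect on Ifit1 to Ifit3 from 2.31 to 2.62. The Ifit3b share difference ran from -36.7 to -6.68 points, and p was 0.05 without CpG replicate 3 or CpG plus IFNα replicate 3. The causes were not tested.

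Labels do not say that replicate numbers mark an animal. Deviations of same-numbered samples correlated from -0.0651 to 0.205 (18 pairs, 5 over 0.1), and 10 of 12 samples were closest to their own number. With the replicate block, the Ifit3b share difference was -20.0 points (exact permutation p = 0.125), and no other call of a member changed besides Ifit2.

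Depth limits the IFIT genes in CpG samples, where Ifit3 and Ifit3b held 5 counts each in all, and Ifitm1 and Ifitm2 throughout.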
